A study of Arabidopsis thaliana with 2 samples.

Results

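Kinases and other proteins that bind ATP were examined among the genes whose transcripts were lower in *cep1* than in wild-type (WT) Arabidopsis stems. A gene was taken when the molecular function terms deposited with it held ATP binding or kinase activity and did not hold transporter activity, and when its biological process terms held neither response to abscisic acid nor lipid metabolic process. Of the 733 genes in the deposited table, 38 had ATP binding or kinase activity. The exclusions removed 13 of them, 10 for transporter activity and 3 for response to abscisic acid, and left 25 genes. By their descriptions these were 5 receptor-like kinases and receptor-like proteins, 9 other kinases and 11 other ATP-binding genes. The table holds only genes that the authors had called down-regulated in *cep1*, at a log2 ratio of -1 or below, so the direction of every difference was fixed by the table and is not a result.

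The samples were mature stems of the *cep1* mutant, a homozygous T-DNA insertion line of the papain-like cysteine protease gene *CEP1*, and of WT Columbia-0 plants, both untreated. Both are labelled as 25 d after flowering, while the methods describe stems that had reached the last of the developmental stages and stopped flowering, which *cep1* plants reached about 1 week later. RNA from 1 *cep1* library and 1 WT library was sequenced, and the number of plants in each is not given in the sources used here. With no replicates, no difference could be set against the variation between plants, no test was run and the intervals cover counting error only.

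Protein kinases transfer a phosphate group from ATP to other proteins, and plants carry a very large family of them. Many are receptor-like kinases, in which an extracellular domain that binds a peptide or another ligand is joined across the plasma membrane to a kinase domain in the cytosol. Receptor-like proteins have a similar extracellular part but no kinase domain of their own. ATP is also used by transporters of the ABC class, by chaperones, by enzymes that activate sulfate or make hormones, and during the transfer of ubiquitin.

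The RefSeq coding sequences of TAIR10.1 were searched for short motifs known from protein kinases and other ATP-binding proteins. All 25 had a coding sequence under the same locus tag. The catalytic loop of protein kinases was searched as histidine or tyrosine, any residue, aspartate, an aliphatic residue or phenylalanine, lysine, any 2 residues and asparagine. It was found in 9 of the 25 genes and in 3.11% of 27444 RefSeq proteins. Of the 16 genes to which the table assigns kinase activity, 9 held the loop and 7 did not. In all 9, an arginine preceded the aspartate. The coding stretches of 5 of them are shown to place the motif in receptor-like and other kinases. The search itself fixed every position of the core except the arginine. Each has 24 bases, read 5′ to 3′, with the codons of the His-Arg-Asp or Tyr-Arg-Asp core in capitals.
AT2G25220: CACAGAGATttgaaatcttcgaat
CIPK5: CATCGCGATctgaaacctgagaat
WNK4: CATAGAGACcttaagtgtgataat
HSL2: CACCGTGACgtcaaaagcaataat
AT5G56460: TATCGCGATttcaaaacttcgaac

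These stretches lie at chr2:10743953-10743976 on the reverse strand (AT2G25220), chr5:3446487-3446510 on the reverse strand (*CIPK5*), chr5:23586088-23586111 on the forward strand (*WNK4*), chr5:26294814-26294837 on the forward strand (*HSL2*) and chr5:22867005-22867028 on the forward strand (AT5G56460), all within coding exons. The 7 genes with the kinase activity term and no such loop were *RLP55*, *RLP56*, *TMKL1*, *SPA3*, *PI4KG3*, *APK4* and AT3G60961. *PI4KG3* and *APK4* are described as kinases of a lipid and of adenylyl sulfate, and AT3G60961 carries a function term for kinases of nucleobase compounds.

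The second ATP-binding signature, the Walker A loop, was searched as glycine, any 4 residues, glycine, lysine, and serine or threonine. It was found in 5 of the 25 genes and in 4.88% of RefSeq proteins. The stretches of 4 are shown to set the ABC transporters beside an enzyme of cytokinin synthesis and an ATPase, with the codons of the closing glycine, lysine and serine or threonine in capitals.
ABCG15: ggtccttccggatccGGAAAGTCC
ABCG14: ggtccatcaggcagtGGCAAAACC
IPT3: ggtgctaccgggacaGGCAAGTCA
AT1G64110: ggtccaccgggtacaGGTAAAACA

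They lie on the reverse strands of chr3:7394724-7394747 (*ABCG15*), chr1:11377153-11377176 (*ABCG14*), chr3:23319283-23319306 (*IPT3*) and chr1:23798082-23798105 (AT1G64110). *APK4* was the fifth gene, with its Walker A codons split by an intron. The 11 genes with neither motif include the 3 ubiquitin-conjugating enzymes, in which ATP is used before the ubiquitin reaches them, and the heat shock protein 70 gene *MED37C*, which has another type of ATP-binding fold. A match is a description of letters, and a missing match says only that these letters were not in the translated sequence.

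The levels spanned a wide range in both libraries. The medians of the 25 genes were 508 reads and 10.7 FPKM (reads scaled to gene length and library total) in *cep1*, against 1489 reads and 38.6 FPKM in the WT. In *cep1* the counts ran from 4 (AT3G60961) to 1736 (*WNK4*), and in the WT from 282 (*RLP55*) to 5471 (*CIPK5*). Together the genes took 13717 reads, 0.0621% of the reads on genes, in *cep1* and 45711 reads, 0.218%, in the WT. From the raw counts and the authors' scaling, a log2 ratio (*cep1* over WT) was obtained for every gene, with its exact (Clopper-Pearson) 95% interval. The median ratio was -1.77 over the 25 genes and -1.86 over the 733 genes of the table, with genes without reads in *cep1* set to 3 reads.

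**Figure D1:**
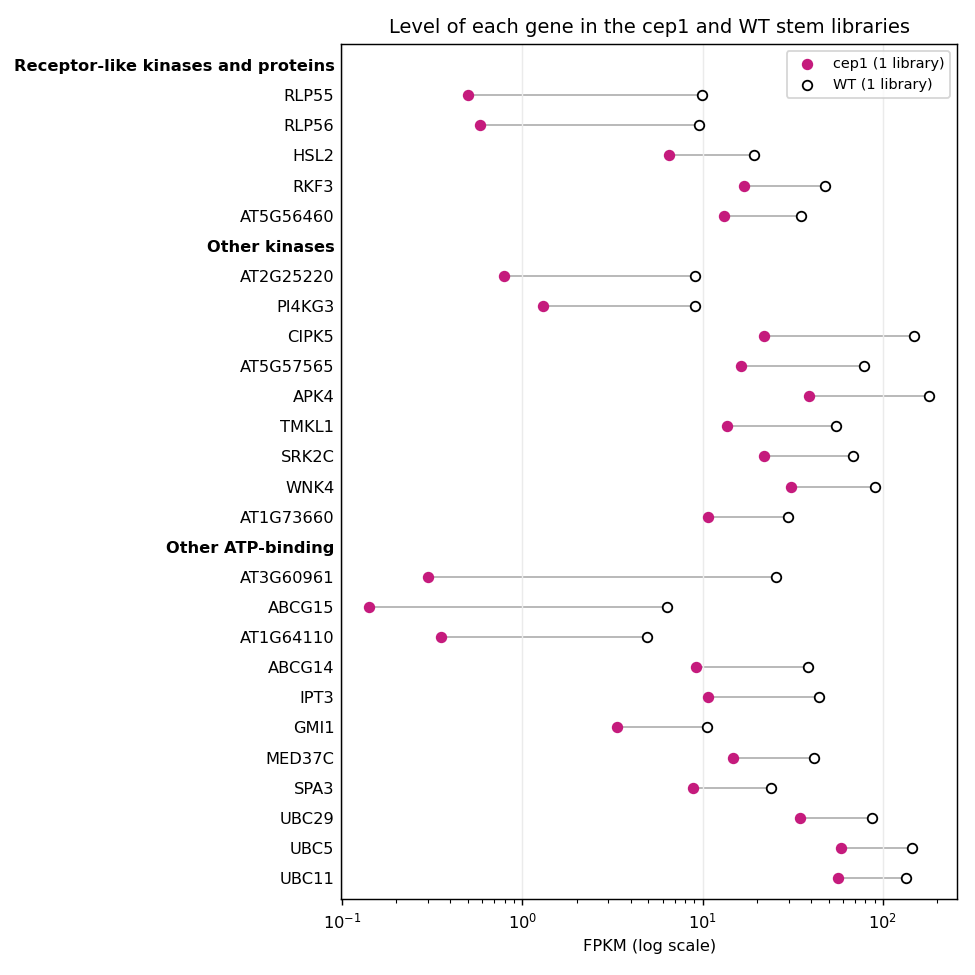
Level of each of the 25 genes in FPKM on a log axis, with *cep1* as filled points and the WT as open points, 1 library each, in the 3 groups. In *cep1* 6 genes lie under 1 FPKM, and in the WT the lowest is AT1G64110 at 4.92 FPKM.

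A few of the genes had very low ratios, and a larger number lay near the table's limit of -1. At -2 or below on the log2 scale, a 4-fold difference, were 9 of the 25 genes, which is 36% of them, while 46.8% of all genes in the table were. A log2 ratio of -3 or below was found for 6 of the 25 genes, 24%, against 28% of the table. No gene had 3 or fewer reads in *cep1*, the pattern that 12.1% of the table showed. At the authors' own limit of -1 on the log2 ratio, all 25 genes were called, as was 100% of the table. The gene just inside the limit of -2 was AT5G57565, at -2.03, and the one just outside was *APK4*, at -1.98. The intervals of both reached across -2, and 8 genes had their whole interval below it. The share of the table with its whole interval below -2 was not computed, so these 8 have no background.

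The size of the ratio went with the WT count. The 7 genes with under 600 reads in the WT lay between -6.15 and -2.54 on the log2 scale, and all of them were at -2 or below. The 18 genes with more reads lay between -2.53 and -1.02, and 2 of them were at -2 or below. The same division was seen in the whole table, in which 94.7% of the 151 genes with under 600 WT reads were at -2 or below, against 34.4% of the 582 others. No gene of the table with under 600 WT reads had a log2 ratio above -1.59. A gene with few reads thus entered the table only with a large ratio, and the large ratios of the 7 genes do not set them apart from other genes at that count.

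**Figure D2:**
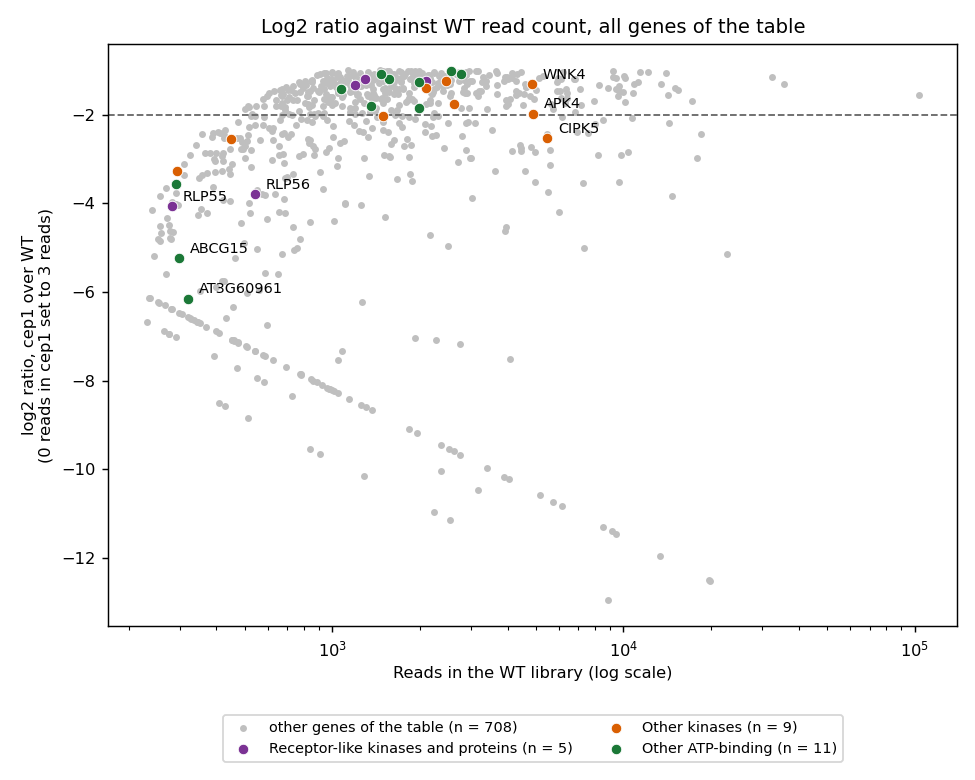
Log2 ratio of *cep1* to WT against the WT read count for the 733 genes of the table, with the 25 genes coloured by group and the dashed line at -2. Genes with under 600 WT reads lie at -1.59 or below, and the 25 genes run from -6.15 (AT3G60961) to -1.02 (*UBC11*).

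The seed marker transcripts listed had no reads in the *cep1* library and many in the WT library. All 11 seed storage and oil body marker genes listed had 0 reads in *cep1*, and their counts ran from 1305 to 19882 in the WT, where they summed to 86610 reads. For the 7 genes with under 100 reads in *cep1*, the counts were 4 to 69 in *cep1* and 282 to 543 in the WT. Whether seed tissue contributed to their WT counts was not tested. In bulk stem RNA, fewer cells of a type and less RNA per cell cannot be told apart. The 6 secondary wall marker genes listed for stems are outside the table and were not analysed here. *CEP1* itself had 15 reads in *cep1* against 1269 in the WT.

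Among the receptor-like genes, the 2 receptor-like proteins had much lower ratios than the 3 receptor-like kinases, and also the lower WT counts. *RLP55* (AT5G45770), which encodes a leucine-rich repeat receptor-like protein, had 15 reads and 0.502 FPKM in *cep1*, against 282 reads and 9.94 FPKM in the WT. Its log2 ratio was -4.07, with an interval from -4.93 to -3.32. *RLP56* (AT5G49290), of the same class, had 35 reads and 0.581 FPKM in *cep1*, against 543 reads and 9.50 FPKM in the WT, a log2 ratio of -3.79 (-4.33 to -3.30). The intervals of these 2 genes overlap, and both lie wholly below -3. Their kinase activity term in the table has no catalytic loop behind it in the coding sequence, and neither carries the ATP binding term.

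The 3 receptor-like genes with a catalytic loop lay close to the upper limit of the table. *HSL2* (AT5G65710), a receptor of the HAESA class known for its part in the abscission of floral organs, had 429 reads and 6.52 FPKM in *cep1*, against 1199 reads and 19.2 FPKM in the WT. The log2 ratio was -1.32 (-1.48 to -1.16). *RKF3* (AT2G48010) is described as a probable leucine-rich repeat receptor-like kinase. It had 790 reads and 16.9 FPKM in *cep1*, against 2105 reads and 47.5 FPKM in the WT, a log2 ratio of -1.25 (-1.37 to -1.13). AT5G56460, a probable receptor-like kinase, had 508 reads and 13.1 FPKM in *cep1*, against 1295 reads and 35.2 FPKM in the WT. Its log2 ratio was -1.19 (-1.34 to -1.04). The intervals of these 3 genes overlap, so counting error alone does not separate them. The 5 receptor-like genes had a median log2 ratio of -1.32, and 2 of the 5 were at -2 or below, against 46.8% of the table.

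The 9 other kinases had a median log2 ratio of -1.98. At -2 or below were 4 of them, 44.4%, which is near the 46.8% of the table. AT2G25220, described as a protein kinase superfamily protein, had 27 reads and 0.795 FPKM in *cep1*, against 294 reads and 9.12 FPKM in the WT. Its log2 ratio was -3.28 (-3.91 to -2.71). *PI4KG3* (AT5G24240), described as a phosphatidylinositol 4-kinase of the gamma type, had 69 reads and 1.31 FPKM in *cep1*, against 451 reads and 9.04 FPKM in the WT, a log2 ratio of -2.54 (-2.93 to -2.18). Both genes had low WT levels within the group, whose median there was 67.9 FPKM.

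*CIPK5* (AT5G10930) had the lowest ratio of the 18 genes with 600 or more WT reads. It encodes a kinase that is activated by calcineurin B-like calcium sensors. It had 848 reads and 22.0 FPKM in *cep1*, against 5471 reads and 149 FPKM in the WT, the highest WT count of the 25 genes. The log2 ratio was -2.53, with a narrow interval from -2.63 to -2.42. AT5G57565, a protein kinase of 178 residues, was the only other gene of the 18 at -2 or below. AT5G57565 had 326 reads and 16.4 FPKM in *cep1*, against 1489 reads and 79 FPKM in the WT, a log2 ratio of -2.03 (-2.20 to -1.85), but its count is uncertain. Over 305 of its 537 coding bases it is 99.3% identical to AT5G57630, and the sources used here do not say how shared reads were counted.

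A kinase of sulfur metabolism followed. *APK4* (AT5G67520), which phosphorylates adenylyl sulfate to the donor used for sulfation, was the most abundant of the 25 genes in the WT by FPKM, with 39.0 FPKM in *cep1* and 181 FPKM in the WT. The counts were 1106 in *cep1* against 4882 in the WT, and the log2 ratio was -1.98 (-2.07 to -1.88). *TMKL1* (AT3G24660), a leucine-rich repeat kinase-like protein for which no catalytic loop was found, had 689 reads in *cep1* against 2628 in the WT (-1.77). Its neighbour in the table was *ABI3*, a seed transcription factor gene 2512 bases away, which had 0 reads in *cep1* against 352 in the WT.

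The 3 highest ratios of the group belonged to *SRK2C*, *WNK4* and AT1G73660. *SRK2C* (AT1G78290), also called SnRK2.8, belongs to a class activated by osmotic stress and had 708 reads and 21.8 FPKM in *cep1*, against 2096 reads and 67.9 FPKM in the WT. Its log2 ratio was -1.40 (-1.53 to -1.28). *WNK4* (AT5G58350), of the class named for a displaced lysine (with no lysine), had 1736 reads and 30.8 FPKM in *cep1*, against 4838 reads and 90.4 FPKM in the WT, a log2 ratio of -1.31 (-1.39 to -1.24). AT1G73660, known as SIS8 (sugar insensitive) and similar to MAP kinase kinase kinases, had 928 reads and 10.7 FPKM in *cep1*, against 2464 reads and 29.8 FPKM in the WT. Its ratio was -1.24 (-1.36 to -1.14). These ratios lie close together, and the interval of each overlaps that of the next. Exon bases shared with a neighbouring gene were 9.05% for *SRK2C* (AT1G78280, opposite strand) and 7.56% for *WNK4* (AT5G58340, same strand), and strand-specific counting is not stated.

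**Figure D3:**
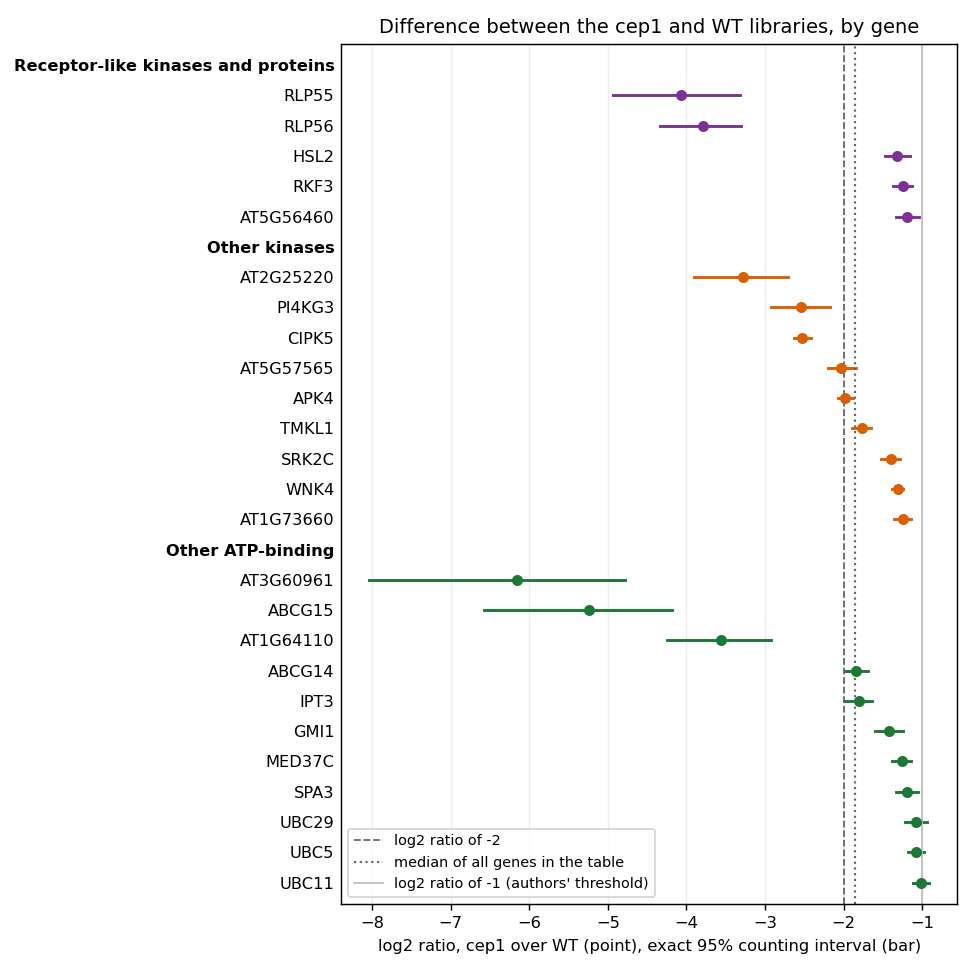
Log2 ratio of *cep1* to WT (point) with its exact 95% counting interval (bar) for the 25 genes in 3 groups, with lines at -2, at -1 and at the table's median of -1.86. Intervals are wide for the 7 genes with under 100 reads in *cep1*, and those of *UBC29*, *UBC5* and *UBC11* cross -1.

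The 11 other ATP-binding genes held both ends of the range, with a median log2 ratio of -1.43. At -2 or below were 3 of the 11, 27.3%, against 46.8% of the table. AT3G60961, described as a P-loop nucleoside triphosphate hydrolase, had 4 reads and 0.302 FPKM in *cep1*, against 319 reads and 25.4 FPKM in the WT. The log2 ratio was -6.15, the lowest of the 25 genes, with an interval from -8.04 to -4.78. It encodes 136 residues with no Walker A loop, and all 411 of its coding bases align to AT3G60180 at 95.1% identity, so its count is uncertain as well. Without AT3G60961 and AT5G57565, a choice made after the data were seen, 7 of the remaining genes were at -2 or below and the median was -1.43.

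The ABC transporters that the rule kept carry no transporter activity term in the table. *ABCG15* (AT3G21090) had 7 reads and 0.141 FPKM in *cep1*, against 297 reads and 6.32 FPKM in the WT, a log2 ratio of -5.24 (-6.57 to -4.18). It lies 1463 bases from AT3G21080, an ABC transporter-related gene outside the rule, which had 20 reads in *cep1* against 740 in the WT. *ABCG14* (AT1G31770), which carries cytokinins from the root towards the shoot, had 496 reads and 9.15 FPKM in *cep1*, against 1986 reads and 38.6 FPKM in the WT (-1.84). *IPT3* (AT3G63110), an isopentenyltransferase of the first step in cytokinin synthesis, had 346 reads and 10.7 FPKM in *cep1*, against 1360 reads and 44.3 FPKM in the WT (-1.81). The intervals of these cytokinin genes, -1.98 to -1.69 for *ABCG14* and -1.99 to -1.64 for *IPT3*, nearly coincide.

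AT1G64110, named DAA1 for an ATPase activated by the pollen factor DUO1, had 22 reads and 0.355 FPKM in *cep1*, against 290 reads and 4.92 FPKM in the WT. The log2 ratio was -3.56 (-4.25 to -2.93). The remaining genes had ratios nearer the limit of the table. *GMI1* (AT5G24280), a DNA repair gene induced by gamma irradiation, had 356 reads in *cep1* against 1073 in the WT (-1.43). *MED37C* (AT3G12580), a heat shock protein 70 chaperone, had 739 reads in *cep1* against 1980 in the WT (-1.26). *SPA3* (AT3G15354), a partner of the COP1 ubiquitin ligase in the control of light responses, had 610 reads in *cep1* against 1569 in the WT (-1.20). *SPA3* has a kinase-like region but no catalytic loop was found in it.

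The ubiquitin-conjugating (E2) enzymes formed the upper end. *UBC29* (AT2G16740) had 622 reads and 34.8 FPKM in *cep1*, against 1473 reads and 86.8 FPKM in the WT, a log2 ratio of -1.08 (-1.22 to -0.94). *UBC5* (AT1G63800) had 1170 reads and 58.4 FPKM in *cep1*, against 2766 reads and 145 FPKM in the WT (-1.08, -1.18 to -0.98). *UBC11* (AT3G08690) had 1131 reads and 56.6 FPKM in *cep1*, against 2561 reads and 135 FPKM in the WT (-1.02, -1.12 to -0.91). The intervals of all 3 reached across the authors' threshold of -1. They are the only genes among the 25 whose interval did so.

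The order of genes with adjacent log2 ratios was in large part not resolved by the counts. Of the 24 neighbouring pairs in the order of log2 ratios, 22 had overlapping intervals. Genes further apart could have separate intervals, such as *CIPK5* (-2.63 to -2.42) and *UBC11* (-1.12 to -0.91). Scaled to the library totals in place of the authors' normalized counts, every log2 ratio was lower by 0.24, and 13 genes were then at -2 or below, with 53.8% of the table.

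The cellular component terms were not named in the rule, but they belong to the same annotation as the function terms. Their shares are thus not independent of the rule, and the receptor-like genes all carry the plasma membrane term. That term was assigned to 8 of the 25 genes, 32%, against 10.4% of the table. These were *RLP55*, *RLP56*, *ABCG14*, *TMKL1*, *HSL2*, *MED37C*, *RKF3* and AT5G56460. Another 8 had the term nucleus (17.5% of the table), with *MED37C* in both. The biological process terms are tied to the function terms in the same way, and the rule also removed 3 genes for response to abscisic acid. Their shares are therefore not independent of the rule either. Signal transduction was assigned to 11 of the 25 genes and to 7.23% of the table. Response to hormone was assigned to the receptor-like genes and *TMKL1*, 6 genes or 24%, against 11.6% of the table. Response to abiotic stimulus was assigned to 5 genes, 20%, against 13.2%. Response to stress was assigned to 3 genes, *SRK2C*, *MED37C* and AT1G73660, which is 12%, against 17.6% of the table. Defense response was assigned to 0 of the 25 genes and to 34 genes, 4.64%, of the table.

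Relatives of the 25 genes were looked up in the whole table by name and description. The CIPK family had a further gene there, *CIPK15*, which the abscisic acid term excluded, with 576 reads in *cep1* against 2161 in the WT and a ratio of -1.74. *PPCK2*, a kinase that controls phosphoenolpyruvate carboxylase and was excluded for the same term, had 12 reads in *cep1* against 653 in the WT (-5.60). Of 10 ABC genes in the table, 2 were among the 25, and the 10 had log2 ratios from -5.24 to -1.05 with a median of -2.46. The words searched found no calcineurin B-like sensor, calcium-dependent protein kinase or MAP kinase cascade member. They also found no cysteine-rich or lectin receptor-like kinase and no wall-associated kinase. AT1G73660, similar to MAP kinase kinase kinases, was missed because it is described as a protein tyrosine kinase family protein. The search thus does not show that a family is absent from the table. Genes of these families outside the table were not analysed here.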

How the data were processed

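Mature stem RNA of 1 *cep1* and 1 WT sample was sequenced. According to the methods the reads were mapped with TopHat v2.0.12, and the submitters' processing notes also list Bowtie2 2.2.3 and HTSeq 0.6.1, without a role. The genome build is not given in the sources used here. The file that the authors deposited holds raw counts for each gene, FPKM values, which scale the counts to gene length and library total, and normalized read counts, a signal equal to the raw count divided by 20.3 in *cep1* and 22.8 in the WT. The deposited FPKM exceeded the value from count, listed length and library total by more than 1% for 5 of the 25 genes. Columns with the authors' log2 ratios, p-values and adjusted p-values, and 2 group FPKM columns, were not used. Library totals recovered from count, length and FPKM were 22077141 reads for *cep1* and 20962056 for the WT. A count of 0 allows up to 3 reads, 1.36e-05% of the *cep1* total and 1.43e-05% of the WT total.

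Ratios on the log2 scale were computed from the raw counts and these divisors with exact 95% intervals. Without replicates, count models could not be fitted and no p-value was computed. No molecular identifiers are described, so reads may be PCR copies of each other and the intervals leave that out. The intervals were tried on simulated data for 733 genes, with 200 lowered 8-fold and the others 2-fold, and held the simulated ratio in 94.3% of cases. The simulated counts had only the counting (Poisson) error that the intervals assume. This checks the calculation and not whether the intervals suit these libraries. Groups were set by words in the gene descriptions, so *SPA3* and AT3G60961 stand with the other ATP-binding genes. For the same reason *TMKL1*, a leucine-rich repeat kinase-like protein, stands with the other kinases and not with the receptor-like genes. Every gene was named. FPKM and intervals were printed at least for the 3 lowest and 3 highest ratios of each group. Genes, groups and lists were chosen with earlier results of these data known. Coding sequences came from RefSeq TAIR10.1, by locus tag, as the longest per gene. The position listed for each of the 25 genes overlapped its RefSeq locus, and for 2 of them start and end were identical. Nearest copies were found with blastn 2.17.0. Python 3.11.15, numpy 2.4.6, pandas 2.3.3, scipy 1.17.1, biopython 1.88 and matplotlib 3.10.9 were used. Alternatives were scaling to library totals, FPKM with 1 or 0.1 added, a minimum of 20 reads in both libraries, a log2 ratio of -3, the interval in place of the estimate, no exclusions and groups by function term.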

Additional observations from a re-analysis of the deposited data

How the results depend on the processing

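Without replicates, no library could be left out and the variation between plants is unknown. No paired analysis was possible because there was 1 library per genotype. All 25 log2 ratios stayed below 0 under every scaling tried, as the choice of the table fixes. With 1 added to the FPKM, AT3G60961 was at -4.34 and *ABCG15* at -2.68. Of the 25 ratios, 18 left their counting interval when scaled to library totals, 20 with 1 added to the FPKM and 18 with 0.1 added.

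The median log2 ratio of -1.77 became -2.01 with library totals, -1.93 with 1 added to the FPKM, -2.0 with 0.1 added and -1.41 with at least 20 reads required in both libraries (22 genes). The median of the whole table was -2.10 with library totals and -1.61 with at least 20 reads. Among the kinase and other ATP-binding genes, the median was -1.43 for those without a kinase activity term and -1.87 for those with one. The median of these genes was -1.43 without AT3G60961 and AT5G57565, and -1.43 without *RLP55* and *RLP56*. The last pair of alternatives was added after the data had been seen. The number of genes at -2 or below was 9, and 15 of 38 genes when the exclusions were dropped, with 46.8% of the table. It was 13 with library totals (53.8% of the table), 10 with 1 added to the FPKM (50.1% of the table) and 6 of 22 with at least 20 reads (34.8% of the table). At -3 it was 6, with 28% of the table. It was 12 with 0.1 added to the FPKM and 8 with the whole interval at or below -2. Without either pair of genes it was 7 of those remaining. The share of the table was not computed for these alternatives.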

Other observations

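Chromosome 5 holds 10 of the 25 genes and 167 genes of the table, and chromosome 3 holds 7 of the 25 and 126 of the table. Chromosome 1 holds 5 of the 25 and 212 of the table, chromosome 2 holds 3 and 107, and chromosome 4 holds 0 and 105. Another gene of the table lay within 10000 bases of 5 of the 25 genes, 20%, and of 23.3% of all genes of the table. The neighbours of *RKF3* and *SPA3* were a sugar transporter gene (AT2G48020, 615 reads in *cep1* against 4404 in the WT) and the metallothionein gene *MT3* (log2 ratio -1.55).

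Protein phosphatases of the 2C class remove phosphate groups from proteins, and 3 of them were in the table. *HAI1* had 114 reads in *cep1* against 1338 in the WT, a log2 ratio of -3.39. *HAB1* had 1111 reads in *cep1* against 3955 in the WT (-1.67), and *AIP1* had 514 in *cep1* against 1319 in the WT (-1.20). A further gene of the heat shock protein 70 family, AT4G32208, had 3 reads in *cep1* against 235 in the WT.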
